A study of Mus musculus with 4 samples.

Results

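The clustered histone genes were followed in the palatal mesenchyme of E13.5 mouse embryos with and without Foxf2. Members were all genes whose symbol starts with Hist1h, Hist2h, Hist3h or Hist4h, so that no measured value took part in the choice. This gave 68 genes with 75 transcript entries, out of 22096 gene symbols and 28107 entries in each embryo's table. The symbols assign 6 members to histone H1, 18 to H2A, 19 to H2B, 12 to H3 and 13 to H4.

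Histones package DNA. A nucleosome wraps DNA around a core made of H2A, H2B, H3 and H4, and the linker histone H1 binds where the DNA enters and leaves it. The clustered genes supply most new histone protein while DNA is copied. Their messages are short, mostly lack introns and end in a conserved stem-loop bound by Slbp, the stem-loop binding protein, where other messages carry a poly(A) tail.

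RNA-seq was performed on red fluorescent cells sorted from dissected palatal shelves of 4 embryos of embryonic day 13.5 on a mixed background. All 4 embryos carried 1 Osr2RFP allele, a knock-in that makes cells expressing the palatal mesenchyme gene Osr2 fluorescent. The controls were 1 Foxf2+/+ embryo, whose label gives the genotype only as Osr2RFP/+, and 1 Foxf2+/- embryo, and the mutants were 2 Foxf2-/- embryos, which lack this forkhead transcription factor in every tissue. The question addressed was which transcripts differ in this tissue when Foxf2 is lost. Each embryo is 1 library, so the control pair holds both genotypes and its spread includes any effect of losing 1 allele.

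Values are FPKM, read fragments scaled to transcript length and to the size of the library, summed over the entries of a gene. Where 4 values are given, they stand in the order Foxf2+/+ control, Foxf2+/- control, first and second mutant. Foxf2 itself read 85.4, 45.1, 1.41 and 2.28 FPKM, with the mutants lowest. The ratio of the coverage column to FPKM, which tracks depth, was 1.36, 1.61, 1.39 and 1.55, so the deepest library was 1.19 times the shallowest. Markers of palatal mesenchyme summed to between 658 and 815 FPKM, while 4 markers of endothelium stayed at or under 0.691 in sum and 7 of epithelium at or under 10.8. The 7 erythroid markers summed to 296, 1780, 1549 and 4240 FPKM, led by the embryonic globins Hbb-y and Hba-x. In such bulk samples fewer cells of a type and less RNA per cell cannot be told apart.

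The members lie in 4 groups in the mm9 genome. The largest holds 54 genes on chromosome 13 between 21807632 and 24026720. Another 10 genes lie on chromosome 3 between 96023839 and 96074115, 3 on chromosome 11, and Hist4h4 stands alone on chromosome 6. Foxf2 (chr13:31717686-31723275) is on the same chromosome as the largest group, 7.69 to 9.91 Mb away. Which strain's alleles each embryo carried on that chromosome was not examined here.

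The sequences of 2 neighbouring H4 genes are shown first, because among the tested members they gave the largest differences between mutants and controls, 1 in each direction. Hist1h4j (chr13:21826965-21827276, plus strand) and Hist1h4k (chr13:21842063-21842374, minus strand) fit within 15410 bases. Each deposited entry is the coding sequence of 312 bases alone, without untranslated ends. Bases 37 to 312 are printed, and the capitals mark the 5 bases at which they differ in the mm9 reference. The bases before them are the same in both.
Hist1h4j: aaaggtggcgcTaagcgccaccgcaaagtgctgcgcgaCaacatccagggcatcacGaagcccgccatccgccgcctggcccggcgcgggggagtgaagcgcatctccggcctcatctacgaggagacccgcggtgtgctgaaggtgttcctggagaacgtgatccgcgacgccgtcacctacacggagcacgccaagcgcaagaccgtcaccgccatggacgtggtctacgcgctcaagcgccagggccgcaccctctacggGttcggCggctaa
Hist1h4k: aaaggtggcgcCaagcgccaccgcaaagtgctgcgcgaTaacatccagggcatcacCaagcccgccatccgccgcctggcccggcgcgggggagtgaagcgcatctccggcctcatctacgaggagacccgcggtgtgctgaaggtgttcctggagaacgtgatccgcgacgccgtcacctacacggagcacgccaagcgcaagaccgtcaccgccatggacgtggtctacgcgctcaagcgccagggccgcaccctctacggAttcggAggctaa

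Counted from 1 at the A of the start codon, with the base of Hist1h4j first, the differences are T48C, C75T, G93C, G300A and C306A. All 5 leave the amino acid as it is, so both genes encode the same protein. Identity over the coding sequence is 98.4%. Of the 50-base windows of Hist1h4j, 59.7% also occur in Hist1h4k, a stretch of sequence in which a short read cannot be placed in one gene over the other.

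Such sharing runs through the whole set. The 13 H4 members have 12 distinct coding sequences but 1 translation, with identities between pairs from 85.3% to 100% and a median of 93.9%. Among the 10 H3 members of 411 coding bases the median identity was 97.6%, with 10 distinct coding sequences and 2 translations. The 15 H2A members of 393 coding bases gave 6 translations, and the 14 H2B members of 381 coding bases gave 9. Amino acid differences are therefore commoner among H2A and H2B genes than among H3 and H4 genes.

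The stem-loop behind the stop codon is a feature the choice of members did not use. The letters GG, any 2 bases, CTTTT, any base, AG, any 2 bases and CC, in that order without gaps, were searched on the coding strand within 100 bases after the stop codon in mm9. They were present in 61 of the 68 members (89.7%) and in 3 of 18432 other genes (0.0163%). The 7 members without a match were Hist1h2an, Hist1h2bp, Hist1h2bq, Hist1h2br, Hist2h2be, Hist1h3g and Hist1h4a. Hist1h2bp, Hist1h2bq and Hist1h2br have spliced entries with open reading frames of 417, 405 and 405 bases, against 381 in most H2B members. Their search may thus have begun at another stop codon. Examples of the main forms follow, with the searched letters in capitals.
Hist1h4d: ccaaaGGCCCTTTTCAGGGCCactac
Hist1h4k: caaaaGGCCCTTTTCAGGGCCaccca
Hist1h4j: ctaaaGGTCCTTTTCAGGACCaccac
Hist1h2bm: acaaaGGCTCTTTTCAGAGCCactaa
Hist1h3e: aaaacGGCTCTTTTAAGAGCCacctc

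These stretches are on chromosome 13, at chr13:23673814-23673839 for Hist1h4d (plus strand), chr13:21842014-21842039 for Hist1h4k (minus strand), chr13:21827301-21827326 for Hist1h4j (plus strand), chr13:21814370-21814395 for Hist1h2bm (plus strand) and chr13:23653767-23653792 for Hist1h3e (minus strand). The stem differed by type. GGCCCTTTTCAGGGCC, or the same with T after the 4 T bases, stood in 10 H4 members, and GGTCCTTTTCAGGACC in Hist1h4j and Hist1h4b. Matches in H1, H2A, H2B and H3 members had the stem GGCTC paired with GAGCC instead. Hist1h4j and Hist1h4k, nearly alike in their coding sequences, thus differ in the stem, which lies 29 and 28 bases after the stop codon. Neither deposited entry reaches it, and of the 75 member entries 39 hold no base outside the open reading frame.

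The promoters also differed by type. Of the members, 62 were matched to RefSeq promoters of the GRCm38.p6 build, which cover 250 bases before the start and 50 after. The octamer ATTTGCAT, searched on both strands, is a known element of H2B promoters bound by Oct-1. It was found in 6 of 16 H2B and 7 of 18 H2A promoters, in 0 of 6 H1, 0 of 10 H3 and 0 of 12 H4 promoters, and in 1.75% of 27025 mouse promoters of that length. Here are 3 H2B sites, from genes described below, with the octamer in capitals and in GRCm38.p6 coordinates.
Hist1h2bm: tctcgtctctATTTGCATaacagcgtgt
Hist1h2bk: atttcactttATTTGCATacgaagttct
Hist2h2bb: gtgaaacctcATTTGCATacaagctcta

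They lie at chr13:21722009-21722036, chr13:22035781-22035808 and chr3:96269642-96269669, all on the plus strand, and the octamers begin 25, 30 and 48 bases before the start. Their values across the embryos are given below. CCAAT, on either strand, stood in every promoter of the H1, H2A, H2B and H3 members matched but in 3 of 12 for H4, against 37.9% of all promoters. TATAAA was present in 35 of 62, against 14.2% of all promoters.

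Levels spread widely among the members. In all 4 embryos 8 members were listed at 0, another 23 stayed under 5 FPKM in every embryo, and 37 reached 5 FPKM in at least 1 embryo and were tested along with 7399 genes in all. The 37 comprised 4 of 6 H1, 6 of 18 H2A, 13 of 19 H2B, 8 of 12 H3 and 6 of 13 H4 members. Among those not tested were Hist1h1t and Hist1h2ba, forms known from the testis, at a mean of 0.754 and 0.290 FPKM.

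The members at 0 were Hist1h2ad, Hist1h2ao, Hist1h2ap, Hist2h2aa1, Hist2h2aa2, Hist1h2bq, Hist2h3c1 and Hist1h4n. None of these 8 has a 50-base window found at 1 place only in mm9. Hist1h2br, all of whose windows also occur in Hist1h2bq, has none either and was at a mean of 0.0171 FPKM. Among the 11 members with at most 5% of such windows, 8 were at 0 and 1 passed the filter on low values, Hist1h2bk. None of the 57 members with more was at 0 in all embryos. Whether reads that fit several places were dropped or divided by the authors' pipeline is not given in the sources used here, so a 0 is a listed value and not a measured absence. Of the 37 tested members, 21 have fewer than 50% of their windows at 1 place, and their values may include reads of their copies.

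**Figure D1:**
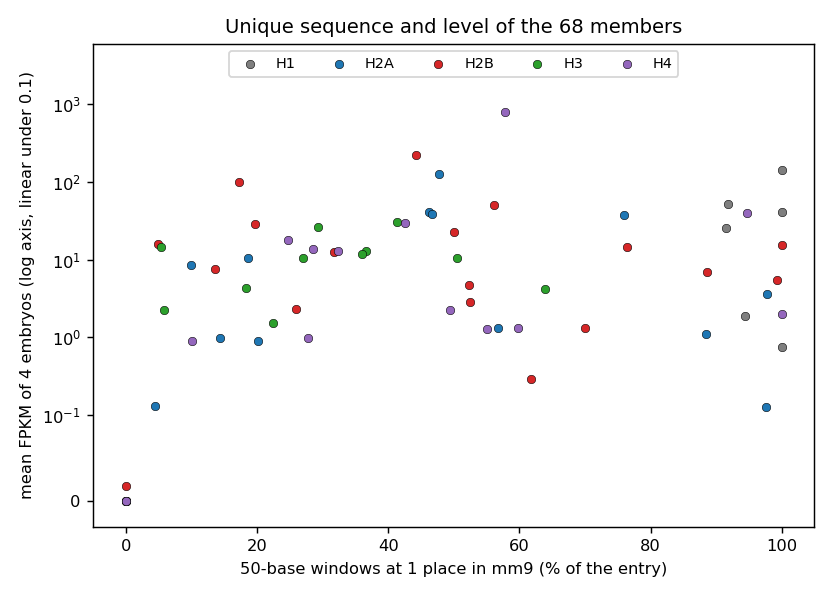
Each point is 1 of the 68 members; the x axis gives the percentage of 50-base windows of its entry found at 1 place in mm9, averaged over entries, and the y axis the mean FPKM of the 4 embryos on a log axis that is linear under 0.1. The 8 members at 0 FPKM sit at the left edge, with none of their windows at 1 place, and the H4 gene at the top, at 795 FPKM, has 57.8% of its windows at 1 place.

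Hist1h4d, one of the H4 genes, was the most abundant member by far. It stood at 655, 881, 760 and 885 FPKM. The mutants lay on either side of the Foxf2+/- value and above the Foxf2+/+ value. It made up 37.9% of the summed FPKM of all members and 86.7% of the H4 sum, and the difference of mutants from controls was 0.11 on the log2 scale (SE 0.148, limma with Benjamini-Hochberg adjusted p = 0.762). Its closest copy, Hist1h4i, shares 33.8% of its windows and had a mean of 1.32 FPKM.

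In each other type the leading gene took a smaller share. Hist1h2bm held 43.5% of the H2B sum, Hist1h2ak 46.4% of the H2A sum, Hist1h1b 53.5% of the H1 sum and Hist1h3g 23.4% of the H3 sum. The leading H3 gene thus took the smallest share of its type.

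The plot of FPKM by embryo for the 37 tested members shows levels from under 5 to over 600 FPKM and lines that run nearly parallel for many genes, with the Foxf2+/+ embryo low.

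**Figure D2:**
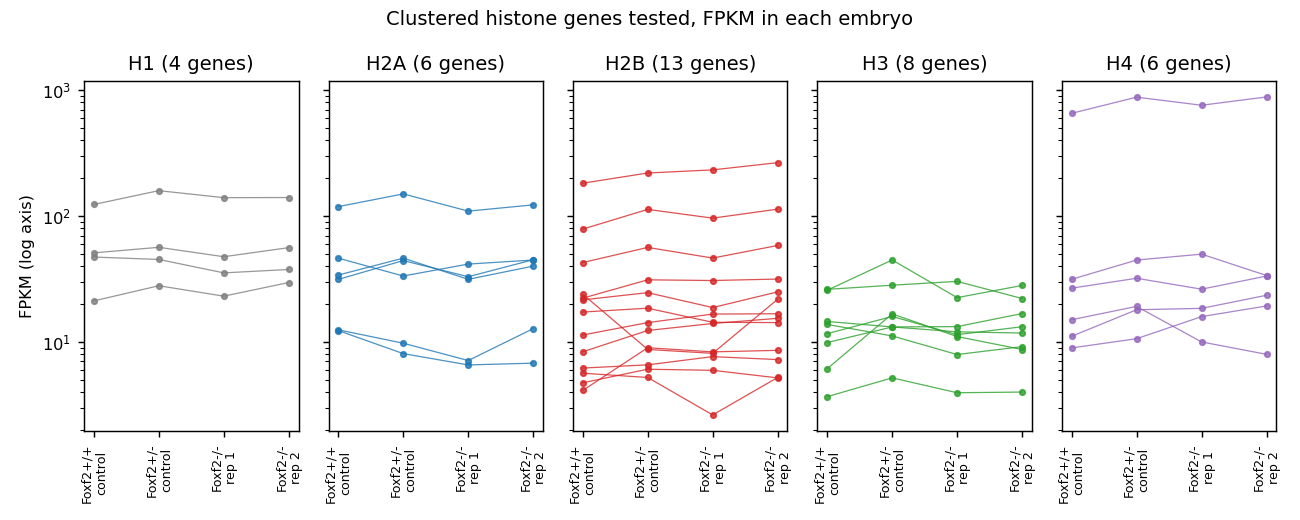
FPKM (log axis) of the 37 tested members in each of the 4 embryos (x axis), 1 line per gene and 1 panel per histone type. In 29 of the 37 the Foxf2+/- control lay above the Foxf2+/+ control, and in 29 of the 37 the second Foxf2-/- embryo lay above the first.

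The 2 controls differed from each other more than the 2 mutants did. The Foxf2+/- embryo exceeded the Foxf2+/+ embryo by a median of 0.35 on the log2 scale over the 37 members, where the median over all 7399 genes was -0.05. Between the mutants the second exceeded the first by a median of 0.19, against 0.08 over all genes. The Foxf2+/- embryo and the second Foxf2-/- embryo, which had the higher histone values in each pair, also had the higher depth and the higher erythroid marker sums in each pair. The part of depth and of erythroid RNA in these values was not tested.

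Summed over all 68 members, FPKM came to 1819, 2296, 1999 and 2277. Both mutants lay between the controls. The mean was 2058 ± 337 in the controls and 2138 ± 196 in the mutants (SD, n = 2 each), a ratio of 1.04, and the exact two-sided permutation test gave p = 1. With 2 against 2 that test cannot go below 0.333. The mutant mean was 1.18 times the Foxf2+/+ value and 0.931 times the Foxf2+/- value, so the direction depended on the control, and the same was true of the H1, H3 and H4 sums.

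By type, the H2B sum was 436 and 531 FPKM in controls against 508 and 597 in mutants, a ratio of means of 1.14 (exact permutation p = 0.667). The H4 sum was 757 and 1017 against 886 and 1012, a ratio of 1.07 (exact permutation p = 1). The H1 sum was 246 and 291 against 248 and 266, and the H3 sum 119 and 157 against 120 and 121, with ratios of 0.958 and 0.873 and p = 1 in each exact permutation test. The H1 ratio turned to 1.01 when each embryo was rescaled to the same median. The H2A sum was 261 and 300 against 238 and 281, a ratio of 0.925 (exact permutation p = 0.667). Mutants and controls overlapped in all 5 types. Only Hist1h3a and Hist1h3f of the H3 members have at least 50% of windows at 1 place, and their ratio was 0.742. This restriction was chosen after seeing the data, and Hist1h3a is the more abundant of the pair. Among H2A entries of at least 600 bases the ratio was 1.36, on sums of 4.19 to 7.10 FPKM.

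Shares of the total, which cancel what all members of an embryo have in common, separated the groups. H2B took 24.0% and 23.1% of the summed FPKM in controls against 25.4% and 26.2% in mutants (mean 23.5% ± 0.607 against 25.8% ± 0.576, SD, n = 2). H2A took 14.3% and 13.1% against 11.9% and 12.3%, H1 13.5% and 12.7% against 12.4% and 11.7%, and H3 6.56% and 6.83% against 6.01% and 5.32%. For each of these 4 types the mutant and control values did not overlap, with H2B higher in the mutants and H2A, H1 and H3 lower, each at the smallest p the exact permutation test allows here, 0.333. The H4 share was 41.63% and 44.29% in controls against 44.30% and 44.43% in mutants. It did not overlap either (exact permutation p = 0.333), but 1 control lay barely under the mutants. Since the shares add up to the whole, they are not independent of each other. Without Hist1h4d, an alternative chosen after seeing the data, H2B took 37.5% in both controls and 41.0% and 42.9% in the mutants. The H4 shares then overlapped (exact permutation p = 0.667). Hist1h2bm alone held 43.5% of the H2B sum and was higher in both mutants, so the H2B share depends in large part on this gene. Shares without Hist1h2bm are not given, and the H2B difference is not read as a shift of the whole type.

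**Figure D3:**
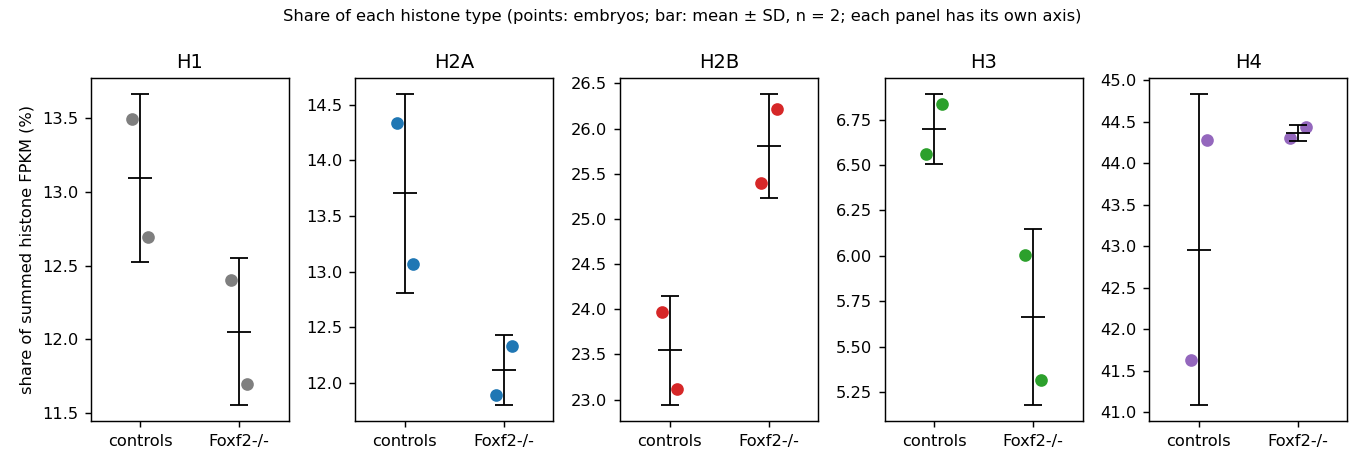
Share of each histone type in the summed FPKM of all 68 members (y axis, %, a separate range in each panel that does not start at 0) for the 2 controls and the 2 Foxf2-/- embryos; points are embryos and bars the mean ± SD. The H2B points of the mutants, 25.4% and 26.2%, lie above those of the controls, and the H2A, H1 and H3 points lie below.

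The ratio of H2B to H2A, which pair as dimers in the nucleosome, was 1.67 and 1.77 in controls against 2.14 and 2.13 in mutants. The ratio of H4 to H3, the other pair, was 6.35 and 6.48 against 7.38 and 8.36. Both ratios were higher in the mutants without overlap (exact permutation p = 0.333 each). The ratio of H2A to H3 was 2.19 and 1.91 against 1.98 and 2.32 and overlapped. Since 5 of the 8 members at 0 are H2A genes, these ratios describe the listed values and not the amounts of histone message.

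The ratio of the leading H2B gene to the leading H2A gene is not independent of the ratio of the sums. These genes hold 43.5% and 46.4% of the H2B and H2A sums. Hist1h2bm was at 182 and 220 FPKM in controls against 233 and 266 in mutants, with both mutants above both controls (log2 fold change 0.31, SE 0.12, limma with Benjamini-Hochberg adjusted p = 0.299). Hist1h2ak was at 119 and 150 in controls against 109 and 123 in mutants, which overlapped (log2 fold change -0.20, SE 0.127, limma adjusted p = 0.494). Their ratio was 1.54 and 1.47 in controls against 2.13 and 2.17 in mutants (exact permutation p = 0.333).

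Gene by gene, mutants and controls were compared on log2(FPKM + 0.1), a scale that understates changes of low genes. No member was called higher or lower by limma with a Benjamini-Hochberg adjusted p under 0.05 and more than 1.5-fold change, where 0.0676% of all genes tested were called higher and 0.0135% lower. At an unadjusted p under 0.05, 5 members were higher and 5 lower, against 2.76% and 11.9% of all genes. The count of calls depended on which control was kept. Without the Foxf2+/- control limma called 5 members higher (Hist1h2bn, Hist1h4k, Hist1h4a, Hist1h2bh and Hist1h3i) and 3 lower (Hist1h2ai, Hist1h4j and Hist1h3a), where it called 0.851% and 0.797% of all genes. Without the Foxf2+/+ control it called 0 higher and 3 lower (Hist1h4j, Hist1h3g and Hist1h3i), against 0.27% and 0.0676% of all genes. Without the first or the second mutant it called 0 members, against 0.0676% of all genes higher and 0.0405% lower in the former fit and 0.0405% and 0.0541% in the latter. Hist1h3i was called in opposite directions in these fits, at 6.11 and 16.7 FPKM in controls against 11.0 and 8.68 in mutants.

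The median log2 fold change of the 37 members was 0.02, against -0.08 for all genes tested. Against the Foxf2+/+ control alone it was 0.15 (all genes -0.11), and against the Foxf2+/- control alone -0.13 (all genes -0.06). The medians by type were 0.15 for H2B, 0.12 for H4, -0.03 for H1, -0.10 for H3 and -0.18 for H2A. The comparisons with each control share the mutant embryos. In 17 of the 37 members the mutant mean on the log2 scale was above the Foxf2+/+ value and below the Foxf2+/- value.

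Hist1h4k and Hist1h4j were the members whose mutant mean passed 1.5-fold over both controls or under both, 1 higher and 1 lower. Of all genes tested 0.46% met that criterion in the higher and 0.203% in the lower direction. Without the Foxf2+/- control 5 members passed in each direction (all genes 1.16% higher and 1.78% lower), and without the Foxf2+/+ control 2 passed as higher and 3 as lower (all genes 0.716% and 0.5%). Without the first mutant 1 passed in each direction (all genes 0.743% and 0.27%), and without the second 0 as higher and 1 as lower (all genes 0.378% and 0.581%). Hist1h4k stood at 8.94, 10.6, 15.9 and 19.3 FPKM. Both mutants were above both controls, with a log2 fold change of 0.84 (SE 0.125, limma with Benjamini-Hochberg adjusted p = 0.0598), 0.96 against the Foxf2+/+ and 0.72 against the Foxf2+/- control.

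Hist1h4j differed in the other direction. It was at 15.0 and 19.1 FPKM in controls against 9.97 and 7.95 in mutants. Both mutants were below both controls, with a log2 fold change of -0.92 (SE 0.145, limma with Benjamini-Hochberg adjusted p = 0.0704), -0.74 against the Foxf2+/+ and -1.09 against the Foxf2+/- control. Over the alternative settings the adjusted p ran from 0.000977 to 0.487 for Hist1h4j and from 0.00135 to 0.454 for Hist1h4k. The lowest value of each gene came from a fit in which a control embryo stands alone and is assumed to vary like the mutants. Without the second Foxf2-/- embryo Hist1h4k no longer passed 1.5-fold against each control.

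The order of the pair differed between the groups. The pair was picked for passing 1.5-fold in opposite directions, with both mutants beyond both controls, so their ratio had to separate the groups. The ratio of Hist1h4k to Hist1h4j was 0.597 and 0.554 in controls against 1.59 and 2.42 in mutants. Its exact permutation p of 0.333 followed from that choice and is no further evidence. Their sum was 23.9 and 29.7 FPKM in controls against 25.8 and 27.2 in mutants (mean 26.8 ± 4.09 against 26.5 ± 0.984, SD, n = 2, exact permutation p = 1). The pair was picked as 1 gene higher and 1 lower, so their differences offset each other in the sum. The overlap of the sums is thus no further evidence either. Only 32.3% of the windows of Hist1h4j and 28.5% of those of Hist1h4k are found at 1 place in the genome. Leaving out members under 50% of such windows, an alternative chosen after seeing the data, removes both genes. That no member then passed 1.5-fold against each control followed from this cutoff and is no further evidence. Hist1h4a, which shares 71.1% of the windows of Hist1h4k, was at 11.1 and 18.0 FPKM in controls against 18.4 and 23.4 in mutants. The part that assigning shared reads or allele differences had in this difference was not tested.

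**Figure D4:**
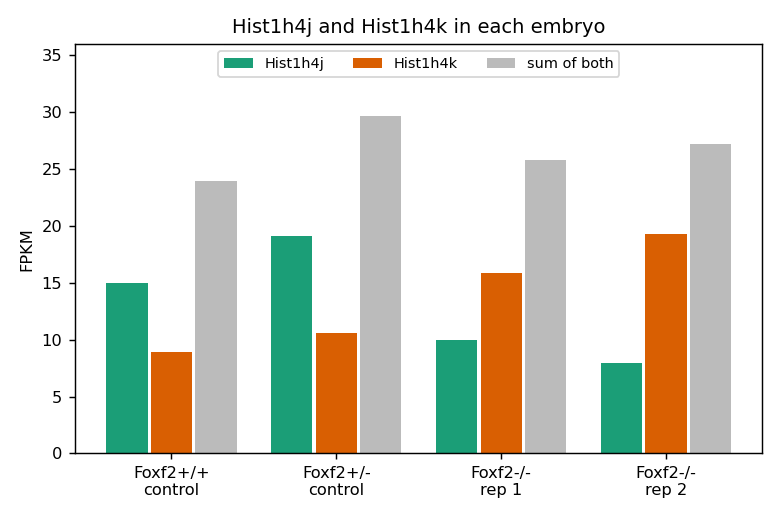
FPKM (y axis, from 0) of Hist1h4j, Hist1h4k and their sum in each of the 4 embryos (x axis). Hist1h4j is the taller of the pair in both controls and Hist1h4k in both Foxf2-/- embryos, while the sum stays between 23.9 and 29.7 FPKM.

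**Figure D5:**
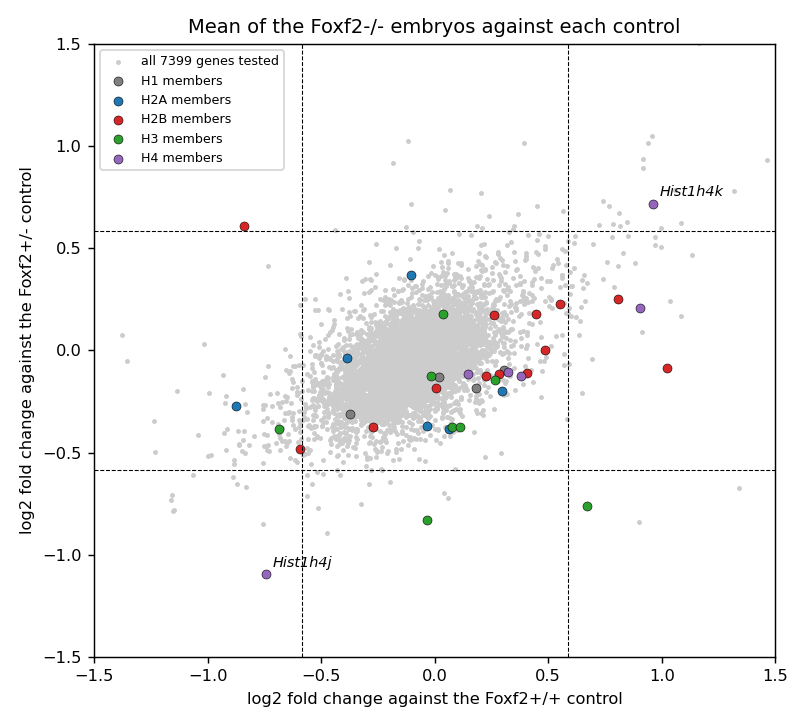
Log2 fold change of the mean of the Foxf2-/- embryos against the Foxf2+/+ control (x axis) and the Foxf2+/- control (y axis) for all 7399 genes tested (grey) and the 37 members by type; dashed lines mark 1.5-fold and 34 genes lie outside the axes. The axes share the mutant values, and 2 members, both H4 genes, lie beyond the lines in the same direction on both.

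In 6 members both mutants lay above both controls, against 8.66% of all genes, and in 5 both lay below, against 38.7%. The other 26 overlapped. Without the Foxf2+/- control 19 members lay above and 8 below, against 14.8% and 59.6% of all genes, and without the Foxf2+/+ control 8 and 16, against 20.9% and 47.7%. Without the first mutant the counts were 16 and 6, against 27.7% and 46.0% of all genes, and without the second 8 and 15, against 12.4% and 65.7%. When each embryo was rescaled to the same median over all genes, 8 members lay above (all genes 21.4%) and 5 below (22.3%). Of the 6 higher, 4 are H2B genes (Hist1h2bm, Hist1h2bh, Hist3h2ba and Hist1h2be) and 2 H4 genes (Hist1h4a and Hist1h4k). The 5 lower came 1 from each type, namely Hist1h1a, Hist1h2ai, Hist1h2bk, Hist1h3a and Hist1h4j.

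Among the other H2B genes, which encode the partner of H2A, Hist1h2bh was at 8.33 and 12.3 FPKM in controls against 14.0 and 15.4 in mutants (log2 fold change 0.53, limma adjusted p = 0.24). Hist3h2ba, on chromosome 11, was at 11.3 and 14.2 against 16.6 and 16.7 (log2 fold change 0.39, limma adjusted p = 0.236). Both mutants were above both controls in these 2 genes. Hist1h2bk was lower in both mutants, at 17.2 and 18.5 against 14.3 and 14.2 (log2 fold change -0.32, limma adjusted p = 0.23). It has 4.82% of its windows at 1 place. Hist1h2bl, at 78.7 and 113 against 96.2 and 113, and Hist1h2bb, at 42.7 and 56.3 against 46.3 and 58.3, came next to Hist1h2bm in level among the H2B genes and overlapped between the groups. Hist2h2bb, on chromosome 3 and with all of its windows at 1 place, had the largest SE of the tested members, 0.499 on the log2 scale, at 23.9 and 8.69 FPKM against 8.10 and 21.8. Hist1h2bm, Hist1h2bk and Hist2h2bb, whose octamers are shown above, thus were higher, lower and overlapping in the mutants.

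The 4 tested H1 genes, which encode linker histones, have between 91.5% and 100% of their windows at 1 place. Hist1h1a was at 47.2 and 45.2 FPKM in controls against 35.3 and 37.6 in mutants, lower in both mutants (log2 fold change -0.34, SE 0.0920, limma with Benjamini-Hochberg adjusted p = 0.22). Hist1h1b, the most abundant of them, was at 124 and 159 against 140 and 140. Hist1h1e was at 51.0 and 56.4 against 47.5 and 56.0, and Hist1h1c at 21.1 and 27.9 against 23.1 and 29.6, both overlapping. The entry of Hist1h1e overlaps that of Hist1h2be, so reads there may count for either.

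No clustered member for the core histone H3 exceeded 44.7 FPKM in any embryo. Hist1h3g was at 25.7 and 44.7 FPKM in controls against 22.4 and 28.1 in mutants, and Hist1h3e at 26.1 and 28.2 against 30.2 and 22.1. Hist1h3a was lower in both mutants, at 13.7 and 11.1 against 7.92 and 9.16 (log2 fold change -0.53, SE 0.126, limma with Benjamini-Hochberg adjusted p = 0.154). Hist1h3b, at 14.5 and 13.1 against 13.2 and 16.8, has 5.25% of its windows at 1 place. Hist2h3c2-ps, on chromosome 3, was at 9.86 and 13.1 against 12.0 and 11.7 and overlaps the entry of Hist2h3c1, which was at 0.

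Among the H2A members Hist1h2ai was lower in both mutants, at 12.3 and 8.05 FPKM in controls against 6.55 and 6.76 in mutants (log2 fold change -0.57, SE 0.176, limma with Benjamini-Hochberg adjusted p = 0.24). It has 9.88% of its windows at 1 place. Hist1h2ab was at 46.2 and 33.3 against 41.5 and 44.7, and Hist2h2ac at 31.3 and 44.2 against 32.9 and 44.9. The other well expressed H4 genes, Hist2h4 on chromosome 3 at 31.4 and 44.7 against 49.7 and 33.7 and Hist1h4c at 26.7 and 32.0 against 26.2 and 33.3, overlapped too.

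Entries of at least 600 bases, which reach beyond the stem-loop in most cases, numbered 19 in 18 genes. Their sum was 313 and 372 FPKM in controls against 322 and 348 in mutants, a ratio of 0.979, against 1507 and 1924 and 1677 and 1929 for the shorter entries, a ratio of 1.05. Hist1h2be, with entries of 2480 and 2506 bases, was at 6.18 and 6.56 in controls against 7.62 and 7.22 in mutants. Hist2h2be, the longest H2B entry at 2618 bases and without the stem-loop letters, was at 4.72 and 6.05 against 5.93 and 5.17. Hist1h2bc was at 5.63 and 5.20 against 2.62 and 5.21, where the first mutant alone was low.

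Genes that process or stabilize histone messages were a list of 19, of which 18 were found and 15 tested, with no gene called by limma. Slbp was at 33.4 and 32.1 FPKM in controls against 33.9 and 32.2 in mutants, and Npat, which activates histone transcription at the start of S phase, at 7.32 in both controls and 7.27 and 7.10 in the mutants. Casp8ap2, a partner in histone gene expression, was at 18.5 and 16.4 against 14.7 and 13.4. In 7 genes of this list both mutants were below both controls and in 1 above, against 38.7% and 8.66% of all genes, with a median log2 fold change of -0.11, where all genes had -0.08.

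Of 20 histone chaperones, which carry histones to DNA, 18 were tested and 0 were called by limma. Both mutants lay below both controls in 12 and above in 0, a larger share below than the 38.7% over all genes that is not read as particular to the list, with a median of -0.17 on the log2 scale. Nasp, a chaperone of H3 and H4, was at 121 and 119 FPKM in controls against 104 and 98.7 in mutants. Supt16h and Ssrp1, the subunits of the FACT complex, were at 47.4 and 43.5 against 37.4 and 38.2 and at 66.7 and 59.8 against 50.3 and 55.2.

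S-phase genes gave 22 tested of 24, with 0 called by limma, 9 lower in both mutants and 1, the cyclin gene Ccne1, higher, against 38.7% and 8.66% of all genes, and a median of -0.10 on the log2 scale. Their sums of 699 and 702 FPKM in controls against 648 and 668 in mutants differed little between the controls, unlike the histone sums. Histone genes outside the clusters, whose messages are mostly polyadenylated, summed to 1823 and 1922 FPKM in controls against 1733 and 2027 in mutants. Of 10 tested 0 were called by limma, 1 was higher and 2 lower in both mutants, against 8.66% and 38.7% of all genes. H2afz, the gene for the variant H2A.Z, was at 817 and 962 against 842 and 1016, with the Foxf2+/- embryo and the second mutant the higher of each pair. The list was not uniform in this. H3f3a, H3f3b, H1f0 and H1fx were lower in the Foxf2+/- than in the Foxf2+/+ control, and the other tested genes of the list were higher.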

How the data were processed

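Per the labels, cells were sorted by fluorescence and libraries made with a Nextera kit. Per the submitters' processing notes and the methods, single-end reads were aligned to mm9 with Tophat, for which Bowtie 0.12.7 is named. The deposited tables, in the layout of Cufflinks, give FPKM and coverage per transcript entry, normalized by the authors for transcript length and library size. The deposited coverage signal is a constant multiple of FPKM within each table. The estimator's version, the treatment of reads with several placements and the strandedness are not given in the sources used here. No counts were given, whole reads could not be recovered from low values, and the number of reads behind an FPKM, and so its counting error, is unknown.

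Entries of at least 200 bases were summed per symbol, 10 symbols with a failed estimate (no member) were left out, and genes with at least 5 FPKM in at least 1 embryo were tested with limma 3.58.1 in R 4.3.3, with a variance trend, on log2(FPKM + 0.1). Benjamini-Hochberg adjustment ran over all 7399 genes. The script was tested on simulated data. Sums, shares and ratios were compared by exact two-sided permutation tests. Those of the sums by type were planned, and those of the shares and ratios were not. Each library came from its own embryo, and p-values measure the spread between these 4 embryos. Windows of 50 bases were matched to mm9, both strands, and windows over a splice junction also to the other members.

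Members, lists and tests were chosen with earlier results of these data known. Genes named were those past 1.5-fold against each control, those called, the 3 highest of each type and those with entries of at least 600 bases reaching 5 FPKM. Hist1h4a, Hist1h2ai, Hist1h2bh, Hist1h2bk, Hist1h3a, Hist1h3i, Hist1h2bn, Hist2h2bb and the genes of the lists were named after their values were seen. Alternatives changed the pseudocount, filter, scaling, entries, trend, genotype model, fold and embryos.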

Additional observations from a re-analysis of the deposited data

How the results depend on the processing

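No paired analysis was possible because the mutant and control embryos carry no shared replicate numbers that tie them to each other. Named genes were refitted under 15 alternatives, and Hist1h4j and Hist1h4k kept their directions in all of them. Members past 1.5-fold against each control, 1 higher and 1 lower, became 5 and 7 without a filter on low values, 3 and 6 with a filter of 1 FPKM, and 0 and 0 at 2-fold or, chosen after seeing the data, among members with at least 50% of windows at 1 place. Members beyond both controls, 6 higher and 5 lower, became 12 and 10, 10 and 10, and 2 and 2 under the first, second and last of these. The cutoff of 50% of windows left out Hist1h4j and Hist1h4k, so 0 and 0 past 1.5-fold followed from it. limma called 0 members higher and 0 lower, but 1 and 1 with a separate mean for each genotype (Hist1h4k and Hist1h4j) and 2 and 1 with the number of null alleles as a linear term (Hist1h4k and Hist1h2bh higher, Hist1h2ai lower). Leaving out each embryo in turn gave 0 to 5 higher and 0 to 3 lower by limma, 0 to 5 and 1 to 5 past 1.5-fold, and 8 to 19 and 6 to 16 beyond the controls. Over all genes limma called 5 higher and 1 lower, which became 13 and 3 with a pseudocount of 1, 0 and 0 without a filter, 15 and 11 with entries of any length, 50 and 28 with genotype means and 25 and 18 with the linear term; the higher count alone became 10 with the median log2 ratio set to 0, 9 after quantile normalization, 2 with the longest entry and 8 without a variance trend. Genes past 1.5-fold against each control, 34 and 15, became 345 and 294 without a filter, 101 and 115 with 1 FPKM, 119 and 65 with any length, 12 and 5 at 2-fold, and 62 lower with the longest entry. Genes beyond both controls, 641 and 2865, became 2041 and 4946 without a filter, 1587 and 1653 with the median set to 0, 1524 and 1672 after quantile normalization, and 1176 higher with 1 FPKM. Without 1 embryo these counts ran from 3 to 63 and 3 to 59 by limma, 28 to 86 and 20 to 132 past 1.5-fold, and 918 to 2050 and 3403 to 4860 beyond the controls. The ratio of sums for H1, 0.958, became 1.01 under either scaling. For H3, 0.873, it became 0.921 with the median set to 0, 0.916 after quantile normalization and 0.926 without Hist1h3g. It became 0.857 for H3 entries under 600 bases and 0.995 for longer ones. For Hist1h3a and Hist1h3f, the H3 members with at least 50% of windows at 1 place, it was 0.742. For H2A, 0.925, it became 1.36 for the longer entries. Without 1 embryo the ratios ran from 0.882 to 1.05 (H1), 0.768 to 1.01 (H3), 0.933 to 1.25 (H4) and 0.931 to 1.18 (all members). Small log2 fold changes turned sign: with the median set to 0, Hist1h1b 0.0796, Hist1h1e 0.0254 and Hist1h3e 0.0103; after quantile normalization, Hist1h1b 0.0706 and Hist1h1e 0.0213; with the linear term, Hist1h1b 0.13, Hist1h2ab -0.0264 and Hist1h3f 0.0314. Without 1 embryo, the range crossed 0 for Hist1h1b (-0.18 to 0.18), Hist1h1c (-0.0946 to 0.30), Hist1h1e (-0.17 to 0.0641), Hist1h2ab (-0.10 to 0.37), Hist1h2bb (-0.11 to 0.28), Hist1h2bg (-0.30 to 0.12), Hist1h2bl (-0.11 to 0.41), Hist1h3b (-0.0638 to 0.28), Hist1h3e (-0.30 to 0.16), Hist1h3f (-0.38 to 0.11), Hist1h4c (-0.16 to 0.19), Hist1h4d (-0.10 to 0.32), Hist2h2ac (-0.20 to 0.29), Hist2h2be (-0.13 to 0.22), Hist2h3c2-ps (-0.14 to 0.26) and Hist2h4 (-0.15 to 0.41). Stricter rules test or count fewer genes by construction, and leaving out an embryo leaves fewer samples; the cause of the other shifts was not tested. With 1 control left, or with a separate mean for each genotype, each lone control embryo is assumed to vary like the mutants. The difference between the controls then adds nothing to the spread. The number of reads behind each FPKM is unknown, so no limit from depth can be given.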

Other observations

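Histone messages of the clustered type end without a poly(A) tail, so 2 other RNAs that lack one and were tested are given beside them. Of the 6 such RNAs found, Rnu11, Rnu12 and Scarna2 reached 5 FPKM in at least 1 embryo but were not tested. Rules on entry length or failed estimates left them out. Their values were uneven. Rnu11 was at 21.9, 0, 0 and 58.2 FPKM, and Rnu12 at 4.45, 14.7, 30.2 and 0. Scarna2 was at 0, 0, 367 and 0. Rmrp, the RNA of the mitochondrial RNA processing ribonuclease, was at 50.5 and 49.0 FPKM in controls against 34.9 and 42.9 in mutants, and Rpph1, the RNA of ribonuclease P, at 38.0 and 38.2 against 33.6 and 36.9. Both Rmrp and Rpph1 were lower in both mutants, as were 38.7% of all genes tested, and neither was called by limma. Malat1, an abundant nuclear RNA, was at 420 and 465 FPKM against 327 and 367, also lower in both mutants. Between the controls, Rpph1, Malat1, Rnu12 and Terc (2.61 and 3.22 FPKM, not tested) were higher in the Foxf2+/- embryo, and Rmrp and Rnu11 were lower. The part of the missing tail in the histone values was not tested.

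Among the markers of other cells, 4 of skeletal muscle summed to at most 0.132 FPKM, with Myog at 0 in every embryo. The 4 macrophage markers summed to 9.63 and 13.6 FPKM in controls against 10.8 and 15.5 in mutants, with the Foxf2+/- control and the second mutant the higher of each pair, as for the histone sums.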
